A study of Mus musculus with 41 samples.

Results

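In calvarial osteoblasts, the bone-forming cells of the skull vault, the binding sites of 2 transcription factors were set against each other: the peaks of Jun and the peaks of Runx2. All 14937 peaks of the deposited Jun list and all 10241 peaks of the deposited Runx2 list were taken, 25178 of the 155773 peaks in the 8 lists of the series, without selection. A site counted as shared when peaks of both lists had at least 1 bp in common. Both factors were mapped by chromatin immunoprecipitation sequencing (ChIP-seq) in cells of C57BL/6 mice at postnatal day 1, digested with collagenase and dispase from the frontal bone and the rostral part of the parietal bone. Jun was precipitated from wild-type osteoblasts (1 library), and no input or IgG control of the series is labelled for it. Runx2 was precipitated through its FLAG tag from Runx2-BioFL/+ knock-in osteoblasts (2 libraries, with 2 inputs), which carry the tagged allele beside an untagged one. Genotype and antibody therefore differ together between the lists and cannot be told apart from the factor. The other 6 lists served only as further readouts of the same positions. They came from rib chondrocytes at postnatal day 1 (Runx2 by FLAG in Runx2-BioFL/+ knock-in cells, and Foxa2 in wild-type cells) and from 3T3 fibroblasts overexpressing Runx2BioFL or, as a control, GFP, before osteogenic medium (day 0) or after 3 days in it (day 3).

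Runx2 is the runt-domain factor without which no osteoblasts form. It binds DNA together with the partner Cbfb. Jun is a leucine-zipper protein that pairs with members of the Fos, Jun or Atf families to form AP-1, a factor found at enhancers of many cell types and induced by growth factors, cytokines and mechanical load. AP-1 members are known regulators of bone mass, and AP-1 and RUNX elements are known to lie near each other in the promoter of the collagenase gene Mmp13. Peak lists hold no expression values, and a gene annotation of build mm9 was not used here, so the osteoblast label was not checked against marker genes and sites are given by position only.

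Each factor is represented by 1 list of positions without a score, height or p-value, and its read depth is not known from the sources used. No value has a replicate error and no difference was tested over samples. Intervals are 95% intervals (Wilson, for shares) for counting error. Peaks of a list are neighbours on the same chromosomes and are not independent, so these intervals are too narrow as a measure of biological spread. For the same reason no p-value is given. The 3T3 precipitations are labelled Runx2-FLAG, those from GFP cells included. The GFP day 0 list holds positions recovered from 3T3 cells labelled as overexpressing GFP in place of tagged Runx2. In 2 other 3T3 lists name and sample label disagree. One is named for GFP day 3 and ascribed to cells with Runx2BioFL at day 0, and the other has the reverse. Which cells either holds is not known, and both are cited by name only.

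The lists had different shapes. Jun peaks were narrower, with a median width of 134 bp (quartiles 98 and 194 bp) against 186 bp for Runx2 (140 and 252 bp), and the lists covered 2.35 Mb and 2.10 Mb of the genome. Jun peaks were also the more crowded: 4391 of them (29.4%) had another Jun peak less than 1 kb away, while 1268 Runx2 peaks (12.4%) had a Runx2 neighbour that close. The median gap to the next peak of the same factor was 10.3 kb for Jun and 24.0 kb for Runx2. Joining peaks of a list that touched left 14796 Jun and 10164 Runx2 peaks. The Jun list is the longer, and the part of list length in this crowding was not tested.

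A minority of each factor's sites was shared, a larger share of Runx2 than of Jun. Of the Jun peaks, 2633 of 14937 overlapped Runx2 (17.6%, 17.0 to 18.2%), and of the Runx2 peaks 2596 of 10241 overlapped Jun (25.3%, 24.5 to 26.2%). The same sharing gives a larger percentage of the shorter list. Without overlap remained 12304 Jun peaks (82.4%) and 7645 Runx2 peaks (74.7%). The overlap was nearly always of single peaks: 2663 overlapping pairs were found, 30 Jun peaks touched more than 1 Runx2 peak and 67 Runx2 peaks more than 1 Jun peak. In bases the sharing was smaller than in peaks. The lists had 268 kb in common, 11.4% of the bases under Jun peaks and 12.8% of those under Runx2 peaks. By the same rule 18.6% of Jun peaks overlapped chondrocyte Runx2, 38.0% 3T3 Runx2 day 3 and 34.0% the list named for Runx2 day 0. The share was 23.7% for the list named for GFP day 3, 4.94% for GFP day 0 and 1.83% for chondrocyte Foxa2. The part of list length in these shares was not tested.

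Shared sites were slightly wider than the others. The median width was 140 bp for Jun peaks with Runx2 and 132 bp for those without, and 199 bp against 182 bp for Runx2 peaks with and without Jun. A wider peak overlaps more easily. Giving every peak the same width of 200 bp gave shares of 18.3% of Jun and 26.5% of Runx2 peaks, and the wider 50% of each list alone, with fewer possible partners, 10.6% and 15.1%.

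Where the factors met, their centres lay close together but seldom at the same base. The median distance between the centres of an overlapping pair was 66.5 bp (64.0 to 70.0 bp), with quartiles of 29.0 and 117 bp. Overlap by itself limits this distance to the mean of both widths, a median of 182 bp, and the median pair used 37.5% of the distance its widths allowed. Centres were within 10 bp in 267 pairs (10.0%), within 25 bp in 605 (22.7%), within 50 bp in 1066 (40.0%) and within 100 bp in 1817 (68.2%). Jun lay on either side of Runx2 about equally often, with 1316 Jun centres at the lower coordinate, 1342 at the higher and 5 at the same position. The lists carry no strand, so the side is relative to the chromosome and not to a gene or motif.

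The common stretch had a median of 94.0 bp (quartiles 57.0 and 132 bp). A Jun peak lay wholly inside the Runx2 peak in 733 pairs (27.5%), and a Runx2 peak wholly inside the Jun peak in 276 (10.4%). Each centre lay within the other factor's peak in 1279 pairs (48.0%), and in 593 (22.3%) neither did, so that these peaks met only at their flanks. At the limit of the definition, 95 pairs shared 10 bp or less, while 90 Jun peaks and 79 Runx2 peaks without overlap had the other factor 10 bp away or less. The boundary thus fell within a continuous run of distances.

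The pair earliest by the sum of both file positions illustrates a close meeting. On chromosome 15 (mm9) a Jun peak from 76034635 to 76034702, number 15 of its file, lay inside a Runx2 peak from 76034594 to 76034764, number 164, with centres 10.5 bp apart. On chromosome 12 the Jun peak from 106251430 to 106251516 lay inside the Runx2 peak from 106251333 to 106251540, with centres 36.5 bp apart, and this site also held a Foxa2 peak in chondrocytes. On chromosome 9 the peaks from 21301353 to 21301434 (Jun) and from 21301249 to 21301420 (Runx2) had 68 bp in common. The remaining early pairs overlapped at their flanks: on chromosome 16, Jun from 29814212 to 29814305 shared 28 bp with Runx2 from 29814046 to 29814239, and on chromosome 6, Jun from 92164791 to 92164905 shared 42 bp with Runx2 from 92164588 to 92164832. All 5 sites were also Runx2 peaks in chondrocytes and in 3T3 cells at day 3. The site on chromosome 6 alone of the 5 was also in the GFP day 0 list. Those on chromosomes 15, 16 and 6 were in the list named for GFP day 3.

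Beyond overlap, many further peaks lay beside the other factor. Of the Jun peaks, 1878 (12.6%, 12.1 to 13.1%) had a Runx2 peak less than 1 kb away without touching it, and 1315 Runx2 peaks (12.8%, 12.2 to 13.5%) had such a Jun neighbour. Among the peaks without overlap these are 15.3% of Jun (14.6 to 15.9%) and 17.2% of Runx2 (16.4 to 18.1%). The Jun value was 9.42% without the sites of both lists named for GFP, 9.44% with peaks of a list under 1 kb apart joined, 9.90% in the earlier 50% of both files and 7.25% among the wider 50% of peaks. Most of them were nearer still: 1020 of the 1878 Jun peaks had the Runx2 edge within 250 bp and 345 within 50 bp. The Runx2 peaks were alike, with 776 of 1315 within 250 bp of Jun and 302 within 50 bp.

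The remaining peaks were remote from the other factor. The median gap of a Jun peak without overlap was 32.9 kb (quartiles 5.62 and 101 kb), and that of a Runx2 peak 23.5 kb (3.75 and 72.5 kb). A gap of 10 to 100 kb separated 5445 Jun peaks (36.5%) and 3527 Runx2 peaks (34.4%) from the other factor, and 3103 Jun peaks (20.8%) and 1427 Runx2 peaks (13.9%) had none within 100 kb. The Runx2 list is also the shorter, and the part of list length in these gaps was not tested.

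**Figure D1:**
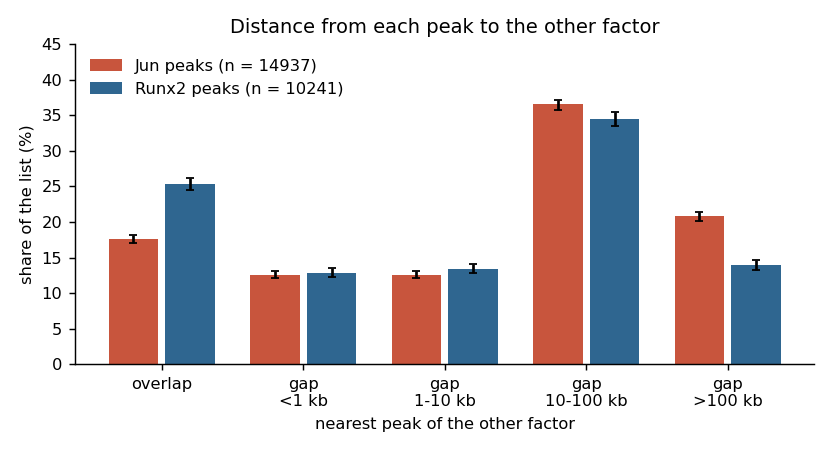
Share of the Jun list (red) and of the Runx2 list (blue), in percent, by the gap to the nearest peak of the other factor; bars show 95% Wilson intervals. Overlap held 17.6% of Jun and 25.3% of Runx2 peaks, and the classes under 1 kb and from 1 to 10 kb held 12.6 to 13.4% each.

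The earliest peaks of each file that stood alone show how different such sites can be. The first Jun peaks with no Runx2 peak within 10 kb lay on chromosome 13 from 45719243 to 45719447 (nearest Runx2 58.5 kb away), on chromosome 11 from 79038276 to 79038369 (28.4 kb) and on chromosome 1 from 164500632 to 164500752 (21.9 kb). All 3 were Runx2 peaks in chondrocytes although none was in the osteoblast Runx2 list. The last 2 were also Runx2 peaks in 3T3 cells at day 3. Of all Jun peaks with Runx2 at 10 to 100 kb, 11.4% were in the chondrocyte Runx2 list and 31.3% in 3T3 Runx2 day 3. The first Runx2 peaks with no Jun within 10 kb lay on chromosome 13 from 54852221 to 54852308 (nearest Jun 57.1 kb away), on chromosome 9 from 108729357 to 108729469 (18.6 kb) and on chromosome 2 from 152858105 to 152858212 (16.9 kb). These 3 were in the GFP day 0 list, in the list named for GFP day 3 and among chondrocyte Runx2 peaks, but neither in 3T3 Runx2 day 3 nor in the list named for Runx2 day 0. Among pairs without overlap the smallest gap was 0 bp, peaks that abut: the first by position were Jun from 128954994 to 128955279 and Runx2 from 128955280 to 128955424 on chromosome 2, Jun from 123249987 to 123250028 and Runx2 from 123250029 to 123250216 on chromosome 4, and Jun from 14589111 to 14589147 and Runx2 from 14589148 to 14589364 on chromosome 9.

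Counting all pairs of centres by distance, and not only the nearest, gave a level within the same data to read the near distances against. At 500 to 1000 kb there were 186 Jun to Runx2 pairs per kb of distance. At 0 to 25 bp the density was 128 times that level, at 100 to 150 bp 59.1 times and at 400 to 500 bp 13.9 times. It was 8.01 times at 750 to 1000 bp, 2.89 times at 2 to 5 kb and 1.95 times at 10 to 20 kb. The concentration of Jun around Runx2 was thus highest at the centre, declined steeply up to 1 kb and went on as a shallow slope, still 1.17 times the level at 200 to 500 kb.

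The factors' own spacing differed from this. No Jun to Jun or Runx2 to Runx2 pair had centres under 100 bp apart, and whether peaks that close were joined when the lists were made is not known. Jun to Jun pairs were densest at 300 to 400 bp, at 35.9 times their level at 500 to 1000 kb, against 21.1 times for Jun to Runx2 and 12.9 times for Runx2 to Runx2 at the same distance. From 20 to 50 kb outward the 3 kinds of pair were alike, with 1.90, 1.82 and 1.98 times for Jun to Jun, Jun to Runx2 and Runx2 to Runx2. At 2 to 5 kb Jun to Runx2 pairs (2.89 times) were the least concentrated, below Jun to Jun (3.44 times) and Runx2 to Runx2 (3.38 times).

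**Figure D2:**
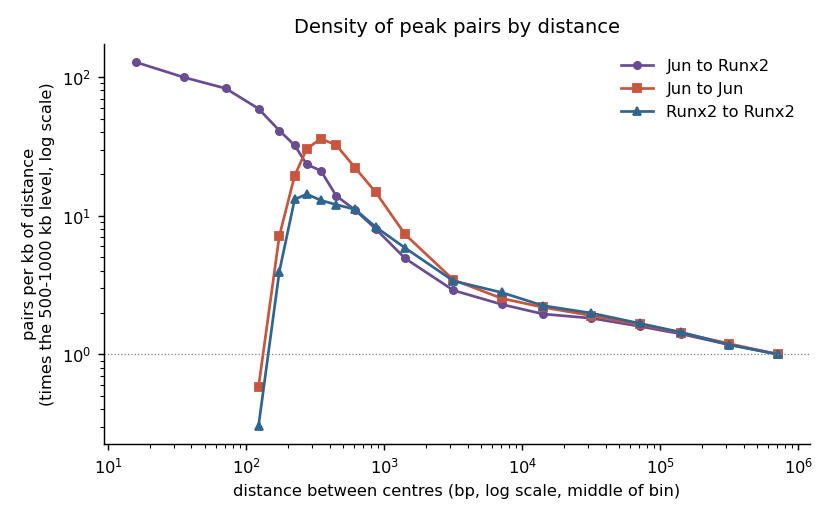
Pairs of peak centres per kb of distance, as a multiple of the density at 500 to 1000 kb, against the distance between centres (both axes logarithmic; the first point is the bin from 0 to 25 bp, and bins without a pair are not drawn). Jun to Runx2 pairs rise to 128 times at the shortest distances, while pairs of the same factor are absent under 100 bp and, for Jun, reach 35.9 times at 300 to 400 bp.

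The sharing differed with where a peak stood in its file, although how the files were ordered is not known. In the first of 10 equal parts of the Runx2 list 510 of 1025 peaks overlapped Jun (49.8%, 46.7 to 52.8%), against 213 of 1024 in part 5 (20.8%, 18.4 to 23.4%) and 152 of 1024 in the last (14.8%, 12.8 to 17.2%). Runx2 peaks with Jun within 1 kb but not overlapping made up 18.8% (16.6 to 21.3%) of the first and 10.7% (8.99 to 12.8%) of the last part. The Jun list behaved differently: Runx2 overlap was 26.2% (24.0 to 28.5%) in its first part, 19.5% (17.5 to 21.6%) in the next and 15.3% (13.5 to 17.2%) in the last. Its peaks with Runx2 within 1 kb numbered between 164 and 212 in each part of 1493 or 1494. Peaks of the last part were also wider, with medians of 174 bp in the first and 196 bp in the last part for Runx2 and 113 and 152 bp for Jun. The more shared first parts thus held narrower peaks, although over the whole lists shared peaks were slightly wider. Widths of shared and other peaks within a part were not compared.

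Membership in the lists named for GFP differed along the files too. Of the first 1025 Runx2 peaks 209 (20.4%, 18.0 to 23.0%) were in the GFP day 0 list, and of the last 1024 none was. A count of 0 allows up to 3 peaks, or 0.293%, and the Wilson limit is 0.374%. For the list named for GFP day 3 the Runx2 shares were 61.9% and 2.83%. Along the Jun list the GFP day 0 share was 3.21% (2.43 to 4.23%) in the first and 4.42% (3.49 to 5.59%) in the last part, and the share in the list named for GFP day 3 was 12.7% and 27.4%. The early Runx2 peaks were thus rich in sites of both lists, and the early Jun peaks were not. What part this has in the sharing along the file was not tested beyond leaving these sites out. Among Runx2 peaks in neither list, Jun overlapped 149 of 361 (41.3%, 36.3 to 46.4%) in the first part and 138 of 995 (13.9%, 11.9 to 16.2%) in the last. Among such Jun peaks, Runx2 overlapped 320 of 1279 (22.7 to 27.5%) in the first part, 199 of 1222 (16.3%, 14.3 to 18.5%) in the next and 140 of 1060 (13.2%, 11.3 to 15.4%) in the last. The difference between the first and the last part of the Runx2 list was 34.9 percentage points (31.1 to 38.6) with all peaks. With these sites left out of both factors' lists at once it was 24.7 points (19.4 to 30.2) over the same parts. When the remaining 8036 Runx2 peaks were divided anew into 10 equal parts it was 19.0 points (15.0 to 23.0), and 22.1 points when the earlier 50% of both files was divided anew.

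**Figure D3:**
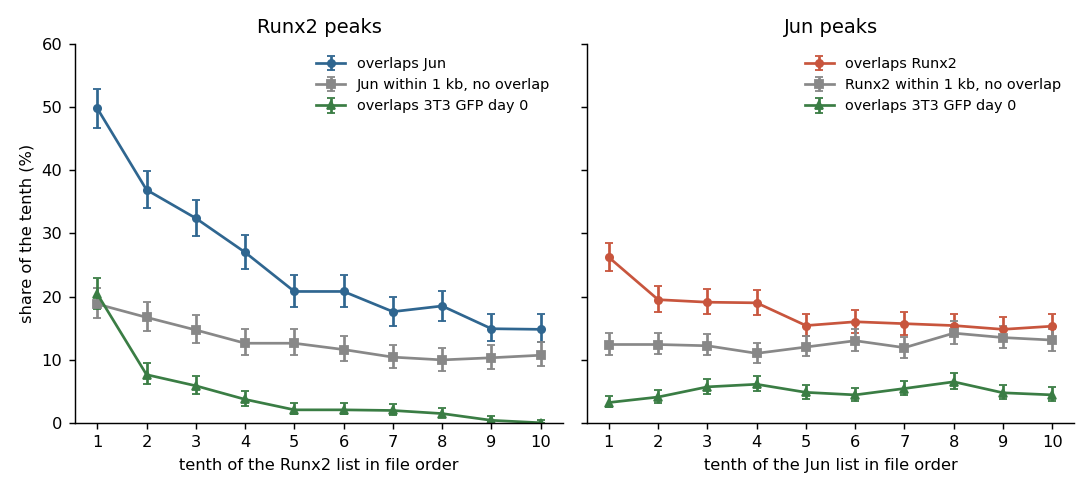
Share of peaks, in percent, in 10 equal parts of the Runx2 list (left) and of the Jun list (right) in file order that overlap the other factor, have it within 1 kb without overlap, or overlap the GFP day 0 list; bars show 95% Wilson intervals. Jun overlap falls from 49.8 to 14.8% along the Runx2 list, together with GFP day 0 overlap from 20.4% to none, and Runx2 overlap falls from 26.2 to 15.3% along the Jun list.

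Within overlapping pairs, an early place of one member in its file hardly went with an early place of the other. Over the 2663 pairs, whose points are neighbours on the same chromosomes, Spearman's rho between the file positions of both members was -0.0596. The 533 pairs with a Runx2 peak of the first part were spread over the Jun list, with 73 Jun partners in its first part, 44 in part 5 and 38 in its last. Pairs with both members in the first 5 parts numbered 965, those with both in the last 5 parts 361, and the mixed ones 801 (early Runx2, late Jun) and 536 (late Runx2, early Jun). The offset of centres stayed within a narrow range along the files, with medians between 56.0 and 75.5 bp over the parts of the Runx2 list and between 56.5 and 80.5 bp over those of the Jun list.

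Peaks of both lists were next joined into domains wherever the gap between neighbours was at most 10 kb. This gave 14602 domains, of which 3821 held both factors (26.2%, 25.5 to 26.9%), 6505 Jun alone and 4276 Runx2 alone. Joined over gaps of up to 50 kb 42.4% of domains were mixed, and with the wider 50% of peaks alone 15.5%. Most domains of 1 factor were single peaks, 5143 of Jun and 3775 of Runx2. In 1467 of the 3821 mixed domains (38.4%, 36.9 to 39.9%) the factors shared the domain and no site, since no pair overlapped. Large domains were mixed: 523 of 564 domains with 5 or more peaks held both factors, and 48 of 48 with 10 or more. Peaks of both lists are counted here, so more peaks give more occasions to hold both, a part that was not tested.

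The number of a factor's own peaks went with the presence of the other. Of domains with 1 Runx2 peak 42.4% (41.2 to 43.6%) held Jun, 75.8% (70.4 to 80.6%) of those with 3, and of those with 5 or more 43 of 44 (97.7%, 88.2 to 99.6%). By Jun peaks the share of domains with Runx2 went from 30.8% (29.8 to 31.9%) for 1 to 76.5% (69.6 to 82.2%) for 5 or more. Domains with more peaks were also longer, 22.1 kb on average with 5 or more Runx2 peaks against 1.16 kb with 1, and 15.6 kb against 0.787 kb by Jun peaks. Peaks of both lists were joined, so a peak of the other factor can link own peaks into 1 domain. The own count is therefore not independent of the other factor's presence. The parts of this rule and of length were not tested. Overlap itself differed less. The share of Runx2 peaks that overlapped Jun was 24.6% (23.6 to 25.7%) in domains with 1 Runx2 peak and 34.3% (28.6 to 40.4%) in those with 5 or more, and the share of Jun peaks overlapping Runx2 was 17.4% (16.6 to 18.3%) and 18.4% (16.2 to 20.9%).

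**Figure D4:**
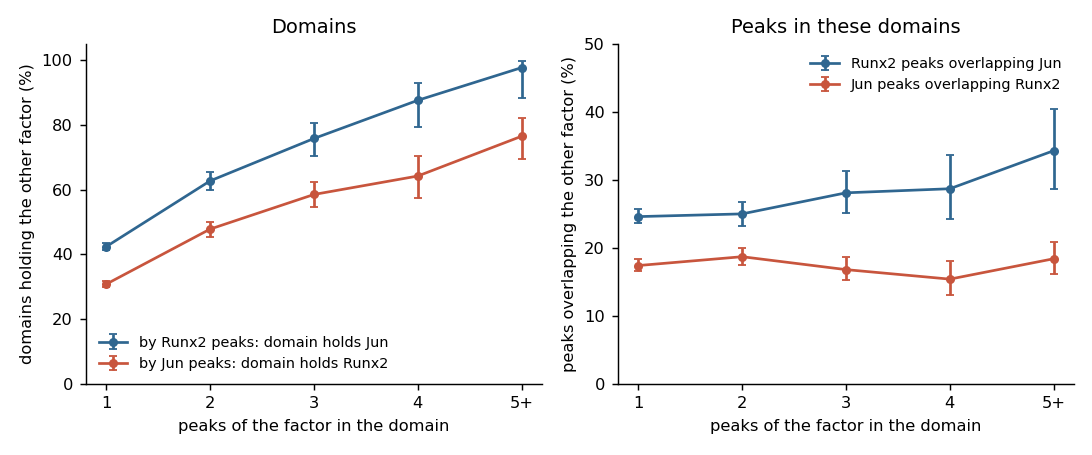
Left, share of domains (peaks joined over gaps of at most 10 kb) that hold the other factor, in percent, by the number of Runx2 (blue) or Jun (red) peaks in the domain; right, share of the peaks in these domains that overlap the other factor; bars show 95% Wilson intervals. Domains with the other factor rise from 42.4 to 97.7% and from 30.8 to 76.5%, while overlap of Jun peaks is 17.4% and 18.4% at the ends of the range.

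The domain with the most peaks lay on chromosome 3 from 88292339 to 88335708 (43.4 kb) and held 12 Jun and 10 Runx2 peaks, of which 6 of each overlapped. The next lay on chromosome 11 from 94775108 to 94803654 (13 Jun and 7 Runx2 peaks) and on chromosome 12 from 86777228 to 86827978 (16 and 4). Among the 5 mixed domains with most peaks Jun outnumbered Runx2 most on chromosome 10 from 79604103 to 79630728, with 15 peaks against 2 and a single overlapping pair, and on chromosome 8 from 86715763 to 86734555 there were 13 and 4. The chromosome 3 domain held 25 peaks of 3T3 Runx2 at day 3 and 7 of the list named for GFP day 3. The domain on chromosome 10 held 22 and 17 peaks of these lists. In the chromosome 3 domain 6 of 12 Jun peaks were on Runx2, while on chromosomes 11, 12, 8 and 10 these were 5 of 13, 2 of 16, 3 of 13 and 1 of 15. Most Jun peaks of the latter domains thus did not overlap Runx2, and their distances to it are not given here.

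Domains of 1 factor were smaller. The largest with Jun alone lay on chromosome 17 from 34256215 to 34259813 with 8 peaks in 3.60 kb, a stretch that also held 10 peaks of 3T3 Runx2 day 3 and 7 of the list named for GFP day 3. Those next in size lay on chromosomes 11 (68924329 to 68939424) and 13 (23608994 to 23623030) with 7 peaks each. The largest with Runx2 alone held 5 peaks on chromosome 9 from 91245778 to 91260549, and none of the 6 other lists had a peak in it. Next came 4 peaks each on chromosome 1 from 184293940 to 184299990 and chromosome 2 from 109914916 to 109921102, both with chondrocyte Runx2 peaks. The cluster on chromosome 9 was thus found in no list but that of osteoblast Runx2.

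Along whole chromosomes the factors went together. In 2647 windows of 1 Mb, 1675 held both factors, 253 Jun alone, 116 Runx2 alone and 603 neither. Spearman's rho between the counts was 0.836, with the windows of neither factor included. Smaller windows had been planned, and how rho depends on window size was not tested. This rho is a description over windows of the same genome, whose mappability and gene content were not measured here. On the autosomes the Runx2 share of Jun peaks ran from 13.8% (11.4 to 16.7%, chromosome 13) to 21.0% (18.2 to 24.0%, chromosome 8), and the Jun share of Runx2 peaks from 19.9% (16.5 to 23.8%, chromosome 13) to 30.3% (26.6 to 34.2%, chromosome 10). Chromosome X stood below both ranges, with 10 of 122 Jun peaks shared (8.20%, 4.51 to 14.4%) and 10 of 85 Runx2 peaks (11.8%, 6.52 to 20.3%). Its intervals reach into the autosomal range, and without the sex chromosomes the overall shares were 17.7% and 25.5%.

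Membership in the 6 other lists was not used to define the classes and shows what shared sites have in common. Shared sites were in at least 1 of these lists more often than sites of 1 factor. Of the Runx2 peaks, 275 of 2596 with Jun (10.6%, 9.47 to 11.8%) were in none of the other lists, against 2227 of 7645 without Jun (29.1%, 28.1 to 30.2%). For Jun the contrast was larger, 349 of 2633 (13.3%, 12.0 to 14.6%) with Runx2 against 6071 of 12304 (49.3%, 48.5 to 50.2%) without. A Jun peak with Runx2 is by definition at a Runx2 site, so its recurrence in other Runx2 lists is not independent of the class. The 6 lists also include those named for GFP. Of the Runx2 peaks, GFP day 0 held 9.55% with Jun and 2.85% without. The count over all 6 lists was not taken within parts of the file.

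Runx2 in 3T3 cells at day 3 overlapped 58.5% of all Runx2 peaks of osteoblasts and its share was lower in each class farther from Jun. It held 71.4% (69.6 to 73.1%) of the peaks overlapping Jun, 65.1% (62.5 to 67.6%) of those with Jun within 1 kb and 58.1% (55.5 to 60.7%) of those with Jun at 1 to 10 kb. At 10 to 100 kb it held 53.9%, and beyond 100 kb 40.5%. Since sharing with Jun differs along the Runx2 file, the contrast was also taken within the file. Compared within 10 equal parts of that file the odds ratio of Runx2 peaks with against without Jun was 1.66 (1.50 to 1.84), lower than 2.12 (1.93 to 2.33) over the whole list. The ratio was therefore smaller within parts of the file and still above 1.

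Membership in the lists named for GFP was more frequent among overlapping than among remoter Runx2 sites. Of all Runx2 peaks 4.55% were in the GFP day 0 list, and the share was 9.55% (8.48 to 10.7%) with Jun overlapping, 5.32% (4.23 to 6.67%) with Jun within 1 kb and 1.16% (0.717 to 1.88%) with Jun at 1 to 10 kb. It was 2.18% (1.75 to 2.72%) at 10 to 100 kb and 3.85% (2.97 to 4.98%) beyond, the last with an interval that overlaps that of Jun within 1 kb. The list named for GFP day 3 held 20.1% of all Runx2 peaks, 34.6% (32.8 to 36.4%) of those overlapping Jun and 29.7% (27.3 to 32.2%) of those with Jun within 1 kb. At 1 to 10 kb this share was 9.67% (8.21 to 11.3%), at 10 to 100 kb 13.2% (12.1 to 14.4%) and beyond 12.1% (10.5 to 13.9%). Within parts of the file the odds ratio with against without Jun was 2.04 (1.67 to 2.48) for GFP day 0 and 1.86 (1.66 to 2.09) for the list named for GFP day 3. For Runx2 peaks with Jun within 1 kb against remoter ones it was 1.32 (0.973 to 1.78) for GFP day 0, an interval that includes 1, and 2.16 (1.84 to 2.53) for the list named for GFP day 3. Runx2 sites overlapping Jun were thus more often sites that are also recovered in GFP cells at day 0. With the sites of both lists named for GFP left out of both factors' lists, 14.1% of Jun and 19.6% of Runx2 peaks were shared.

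Jun peaks were compared in the same way. The list named for GFP day 3 held 23.7% of all Jun peaks, 32.4% (30.7 to 34.2%) of those overlapping Runx2, 32.0% (29.9 to 34.1%) of those with Runx2 within 1 kb and between 18.4 and 21.2% in the 3 remoter classes. Within parts of the Jun file the odds ratio of overlapping against neighbouring peaks was 1.09 (0.959 to 1.24), so that these classes were not told apart by this list. GFP day 0 held 4.94% of all Jun peaks, 8.70% (7.68 to 9.83%) of the overlapping, 6.98% (5.91 to 8.22%) of the neighbouring, 3.09% (2.40 to 3.97%) of those at 1 to 10 kb, 207 of 5445 (3.33 to 4.34%) of those at 10 to 100 kb and 3.64% (3.04 to 4.36%) of those beyond. For this list the odds ratio of overlapping against neighbouring peaks was 1.30 (1.04 to 1.63).

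Runx2 lists separated the same Jun classes, which were themselves defined by osteoblast Runx2. These contrasts are therefore not independent of the classes. Runx2 of 3T3 cells at day 3 held 38.0% of all Jun peaks, 66.7% (64.8 to 68.4%) of those overlapping osteoblast Runx2 and 42.5% (40.3 to 44.8%) of the neighbouring. The list named for Runx2 day 0 held 34.0%, 64.5% and 37.9%, and of the Runx2 peaks 53.2% in all, 68.6% of the overlapping and 62.9% of the neighbouring. Chondrocyte Runx2 held 18.6% of all Jun peaks, 52.2% (50.3 to 54.1%) of the overlapping and 14.5% (13.0 to 16.1%) of the neighbouring. At 1 to 10 kb the share was 10.7% (9.38 to 12.2%). Of the Jun peaks without osteoblast Runx2, 1411 (11.5%, 10.9 to 12.0%) lay on a chondrocyte Runx2 peak.

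Among Runx2 peaks chondrocyte Runx2 held 45.2% in all, 57.2% (55.3 to 59.1%) of those overlapping Jun, 44.7% (42.0 to 47.4%) of the neighbouring and 39.5% (36.9 to 42.1%) of those at 1 to 10 kb. Within parts of the Runx2 file the odds ratio was 1.50 (1.37 to 1.65) for overlapping against all other Runx2 peaks. For neighbouring against remoter ones it was 0.948 (0.835 to 1.08), where the whole list had given 1.20 (1.06 to 1.35). Overlap with Jun thus went with presence in chondrocytes also within parts of the file, and nearness without overlap did not do so measurably.

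Foxa2, a forkhead factor precipitated here from chondrocytes, was rare at these sites and went the other way for Runx2. It held 4.93% of all Runx2 peaks, 3.27% (2.66 to 4.03%) of those overlapping Jun, 2.89% (2.11 to 3.94%) of the neighbouring and 6.25% (5.09 to 7.65%) of those with Jun at 1 to 10 kb. Within parts of the file the odds ratio with against without Jun was 0.674 (0.528 to 0.860). Of Jun peaks Foxa2 held 1.83% in all, 2.73% (2.18 to 3.43%) of those overlapping Runx2 and 0.958% (0.607 to 1.51%) of the neighbouring. For Jun the odds ratio with against without Runx2 was 1.56 within parts of the file (1.19 to 2.05), the opposite direction. Both contrasts rest on the same overlapping sites and are not independent. They differ in the peaks without overlap, of which Foxa2 held 5.49% for Runx2 and 1.64% for Jun. Neighbouring peaks were low in both lists, although for Runx2 they could not be told from overlapping ones (odds ratio of overlapping against neighbouring 1.20, 0.811 to 1.78).

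**Figure D5:**
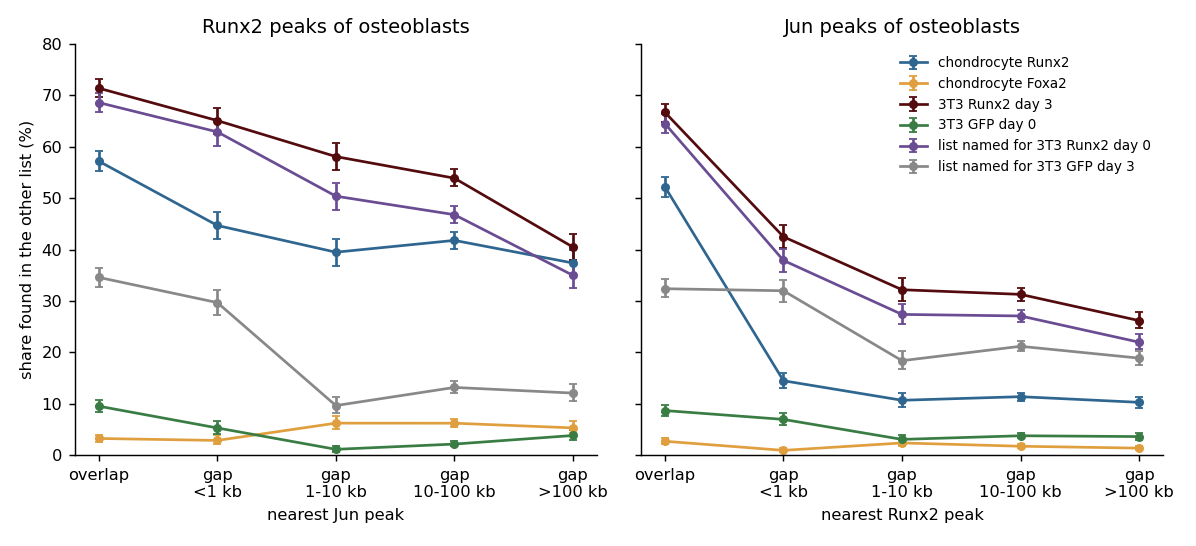
Share of osteoblast Runx2 peaks (left) and Jun peaks (right), in percent, found in each of the 6 other lists, by the gap to the nearest peak of the other factor; bars show 95% Wilson intervals. The list named for GFP day 3 is level between overlapping and neighbouring Jun peaks (32.4% and 32.0%), while chondrocyte Runx2 drops from 52.2 to 14.5%. The Jun classes are defined by osteoblast Runx2, so recurrence in Runx2 lists is not independent of them.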

How the data were processed

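The authors deposited 1 peak list for each ChIP group, with chromosome, start and end and no other values, as the files show. Per the submitters' processing notes positions are in mm9, with DiffBind and Bowtie listed among the tools but not their roles. Not given in the sources used here are the caller of the peaks, thresholds and controls, what the file order means, read depth, and whether the Runx2 libraries were pooled.

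Starts were read as BED positions and are printed 1-based. Overlap counts were checked against bedtools 2.31.1, and the functions were tested on simulated data. Shares have Wilson intervals and odds ratios Woolf intervals, the median offset has an interval from order statistics, and odds ratios within 10 file parts are Mantel-Haenszel estimates with Robins-Breslow-Greenland intervals. Each list has 1 value per class, so no sample-level test was possible. The members, classes and rules were chosen with earlier results of these data known. Regions named are the 5 earliest overlapping pairs by summed file position, the 3 earliest peaks of each factor with none of the other within 10 kb, the 3 pairs with the smallest gap, and the 5 domains with most peaks of both and 3 with most of each alone. Recurrence was read in 6 lists, 2 of them with crossed labels. The alternatives changed the definition of sharing, the peaks entered, the joining gap, the widths, and the file parts. A genome sequence of mm9 was not used here, so no motif or sequence is given. Tables were made with pandas 2.3.3 and NumPy 2.4.6, intervals with SciPy 1.17.1 and plots with matplotlib 3.10.9, all under Python 3.11.15.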

Additional observations from a re-analysis of the deposited data

How the results depend on the processing

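No paired analysis was possible because each factor has 1 list, and for the same reason no replicate could be left out. Of 66 alternative values 17 lay within the interval of the value reported and 49 outside it. The difference between file parts stayed above 0 and the odds ratio above 1 under the alternatives run for them. Shares and offsets have no direction to change. The alternatives with fixed widths, joined peaks, both lists named for GFP and file parts were chosen after seeing the data. Values follow in the order Jun share, Runx2 share, median offset, share of Jun peaks without overlap that had Runx2 within 1 kb, share of mixed domains, percentage points between the first and last part of the Runx2 list, and odds ratio for 3T3 Runx2 day 3, as far as each moved. Asking for 50% of the shorter peak gave 13.8%, 20.1%, 48.5 bp, 19.0% and 29.0 points. Centres within 250 bp gave 20.3%, 28.9%, 79.5 bp, 12.5% and 39.2 points. The earlier 50% of both files gave 12.9%, 18.6%, 60.8 bp, 9.90%, 18.0%, 22.1 points and 1.82, and the wider 50% gave 10.6%, 15.1%, 88.5 bp, 7.25%, 15.5%, 24.0 points and 1.71. Shortened lists (7468 Jun and 5120 Runx2 peaks) hold fewer possible partners. Leaving out peaks of GFP day 0 gave 16.6%, 23.8%, 13.8% (Runx2 within 1 kb), 24.8% and 31.1 points. Leaving out both lists named for GFP gave 14.1%, 19.6%, 62.0 bp, 9.42%, 20.5%, 19.0 points (24.7 with the parts of the whole list kept) and 1.92. Fixed widths of 200 bp gave 18.3%, 26.5% and 14.6% (Runx2 within 1 kb). Peaks of a list joined under 1 kb gave 21.0%, 27.4%, 89.5 bp, 9.44%, 39.9 points and 2.40. Domains joined over 5 kb were mixed in 22.8% and over 50 kb in 42.4%. Within file parts the odds ratio was 1.66. Without sex chromosomes none of the 7 values moved out of its interval. Read depth was not given, so a site missing from a list may lie below its threshold.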

Other observations

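Close pairs of Jun peaks were a further feature of the Jun list, chosen for description after the distances had been seen. Neighbouring Jun peaks with centres 200 to 600 bp apart numbered 1582, with a median spacing of 388 bp. A Runx2 centre lay between the members of 306 such pairs (19.3%, 17.5 to 21.4%). In a stretch of equal length on the lower side of the pair a Runx2 centre was found for 154 (9.73%, 8.37 to 11.3%) and on the higher side for 155 (9.80%, 8.43 to 11.4%). The inner stretch is near 2 Jun peaks and each outer stretch near 1. Of the 309 Runx2 centres between Jun pairs, 137 lay in the middle 50% of the stretch and 172 in its outer 50%, nearer to either Jun peak.

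Jun peaks with a Jun neighbour under 1 kb overlapped Runx2 about as often as the others (16.9%, 15.9 to 18.1%, against 17.9%, 17.2 to 18.7%). They had Runx2 beside them without overlap more often (23.6%, 22.4 to 24.9%, against 7.97%, 7.46 to 8.50%). A Jun neighbour that lies on Runx2 can by itself put Runx2 beside such a peak, and this part was not tested. Jun peaks with a close Jun neighbour were also more often in the GFP day 0 list (8.59%, 7.79 to 9.45%, against 3.42%, 3.09 to 3.79%). The same held for the list named for GFP day 3 (37.4%, 36.0 to 38.8%, against 18.0%, 17.3 to 18.8%). Seen from Runx2, 256 of 10241 peaks had Jun centres on both sides at 50 to 500 bp and 2274 on 1 side. Of the 256, 189 also overlapped Jun, as did 25.3% of all Runx2 peaks. Runx2 peaks with Jun on both sides made up 7.41% (5.96 to 9.18%) of the first of 10 parts of the file and 0.977% (0.531 to 1.79%) of the last. Overlap with Jun also fell between these parts, from 49.8% to 14.8%.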
